A study of Mus musculus with 12 samples.

Results

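Axon guidance genes encode the ligands and receptors that steer growing nerve fibres and many other migrating cells. The set described here held every gene of the deposited table whose symbol belongs to the semaphorins of classes 3 to 7, the plexins, the neuropilins, the ephrins, the Eph receptors, the Slits, the Robos, the netrins or the Unc5 receptors, with Dcc and Neo1. These were 69 of 45808 genes, 34 of them ligands and 35 receptors. Semaphorins act through plexins, and most class 3 semaphorins first bind a neuropilin as co-receptor. Ephrins are held on the surface of one cell and bind Eph receptor tyrosine kinases on its neighbour, Slits are large secreted proteins that bind Robo receptors, and netrins bind Dcc, neogenin and the Unc5 receptors. The receptors act on small GTPases and actin, in fibroblasts and vessels as well as in neurons.

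The genes were measured by mRNA sequencing of mouse embryonic fibroblasts (MEFs) with and without transglutaminase type 2 (TG2), an enzyme that crosslinks proteins and is encoded by Tgm2. The MEFs were prepared from C57BL/6 embryos at day 14 of gestation, either wild type (WT) or TG2 knockout (KO), and were passaged until they immortalized spontaneously. Control cells stayed at 37 °C and heat-shocked cells spent 20 min in a water bath at 42 °C, which gave 4 groups of 3 libraries each (WT control, KO control, and their heat-shocked counterparts WT heat shock and KO heat shock). The groups differed in no other allele or agent named in the sources. WT and KO MEFs became immortal separately, so the loss of TG2 and a difference between the immortalized cells cannot be told apart, and the sources do not say whether the 3 libraries came from separate cultures. In bulk RNA, fewer cells of a type and less RNA per cell cannot be told apart either. The values are read counts that the authors divided by 1 size factor per library, called signal below. The libraries held 15319300 to 27668395 reads in genes, 1 read stood for 0.699 to 1.38 signal, and the guidance genes took 0.305% to 0.334% of the reads. Tgm2 itself was read at 1750.2, 1635 and 1605 in WT control and at 1189, 1032 and 1065 in KO control libraries, a log2 fold change of -0.60 (SE 0.19, adjusted p = 0.0104 from limma). The libraries labelled KO thus had lower Tgm2 signal but were not free of it, and the table does not separate reads of the deleted exons from the rest.

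The label of the cells was checked against marker lists. All 13 fibroblast markers were read in WT control libraries and 12 in KO control libraries, with summed signals of 214727 to 242793 and 222854 to 230970. Of the 11 that could be tested, limma called 5 higher and 5 lower in KO control libraries. The collagen Col1a1 fell by 2.95 and the growth factor receptor Pdgfra by 1.57 on the log2 scale, while Thy1, a surface glycoprotein, rose from a mean of 517 to 8249 and S100a4, a calcium-binding protein, from 258 to 1651. Of 12 neuronal markers, 6 were read in WT control and 4 in KO control libraries, and Rbfox3, Snap25, Nefl, Nefm, Elavl4 and Dcx had no read in any library. Their summed signal was 1571 to 1735 in WT control and 909 to 1133 in KO control libraries. Tubb3, a tubulin, held most of it, with means of 1047 and 1022, while Map2, a microtubule-associated protein, and Gap43, a growth cone protein, were read at means of 516 and 64.6 in WT control libraries and not at all in KO libraries. Syp, a synaptic vesicle protein, was higher in KO control libraries, at a mean of 18.2 against 4.79. Glial markers summed to 80.9 to 101.1 in WT control and 32.9 to 41.8 in KO control libraries, with S100b, Olig2 and Foxd3 at 0 and Sox10 at 1 read in all 12 libraries together. Endothelial markers summed to 31.8 to 40.5 against 21.6 to 29.7, epithelial markers to 41.2 to 60.1 against 19.1 to 24.1, and myeloid markers to 4330.1 to 4984 against 1591 to 1865, most of the WT sum from Csf1r. Of 4 myeloid markers tested, Csf1r fell from a mean of 4332 to 12.3, while Cd14 rose from 183 to 1544 and Fcgr3 from 3.43 to 43.3. These lists moved with the genotype, and the fibroblast list also moved with heat shock. Its summed signal was 358219 to 391725 in WT heat shock and 311258 to 352696 in KO heat shock libraries. With heat shock, limma called 4 of its 11 tested markers higher in WT cells, beside 1.66% of all genes tested. In KO cells 3 of the 11 were called higher, beside 0.577% of all genes. Of the other lists, only the myeloid one held a call, Cd68, higher in each genotype. The part of the marker lists in the results below was not tested.

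KO MEFs differed from WT MEFs at 37 °C in most of the guidance genes that could be tested. Slit2, Slit3, several semaphorins, both neuropilins and the receptor Ephb2 were higher in KO MEFs, while Robo1, Robo2, Sema4d, Ephb1 and Sema6d were almost or entirely lost. Of the 69 genes, 54 reached a signal of 10 in 3 or more of the 12 libraries and were tested, 31 ligands and 23 receptors. A gene was called where its p from limma on log2(signal + 1), adjusted by Benjamini-Hochberg, did not exceed 0.05 and its fold reached 1.5. On these terms 16 genes were higher and 25 lower, 75.9% of those tested. Over all 14201 genes tested 48.8% were called, 22.9% higher and 25.8% lower. The median log2 fold change was -0.47 over the guidance genes and -0.04 over all genes. Ligands split into 13 higher, 12 lower and 6 not called, and receptors into 3 higher, 13 lower and 7 not called.

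Part of these counts follows from the filter. Through WT libraries alone 11 genes passed it, and Ntn5 through KO libraries alone, so these could hardly fail to differ. Among the 42 guidance genes that passed in both genotypes, 15 were higher and 14 lower, 69.0% against 41.5% of the 11918 genes of the whole table that did so. These split into 24 ligands, 12 higher, 6 lower and 6 not called, and 18 receptors, 3 higher, 8 lower and 7 not called. The 3 KO control and 3 WT control libraries did not overlap in 47 of the 54 genes, 17 with the KO libraries above and 30 with them below, and the same held for 76.4% of all genes tested. The overlapping genes were Efnb3, Epha2, Epha4, Ntn1, Plxna3, Sema4c and Sema4g. Of the 41 called genes, 38 were called in the same direction under every alternative processing that tested them, the exceptions being Efna2, Efnb2 and Unc5c. The 38 include the 11 genes and Ntn5 that passed the filter through 1 genotype alone and could hardly lose their call. The exceptions all passed in both genotypes. A filter at a signal of 50 left 6 of the 41 untested.

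**Figure D1:**
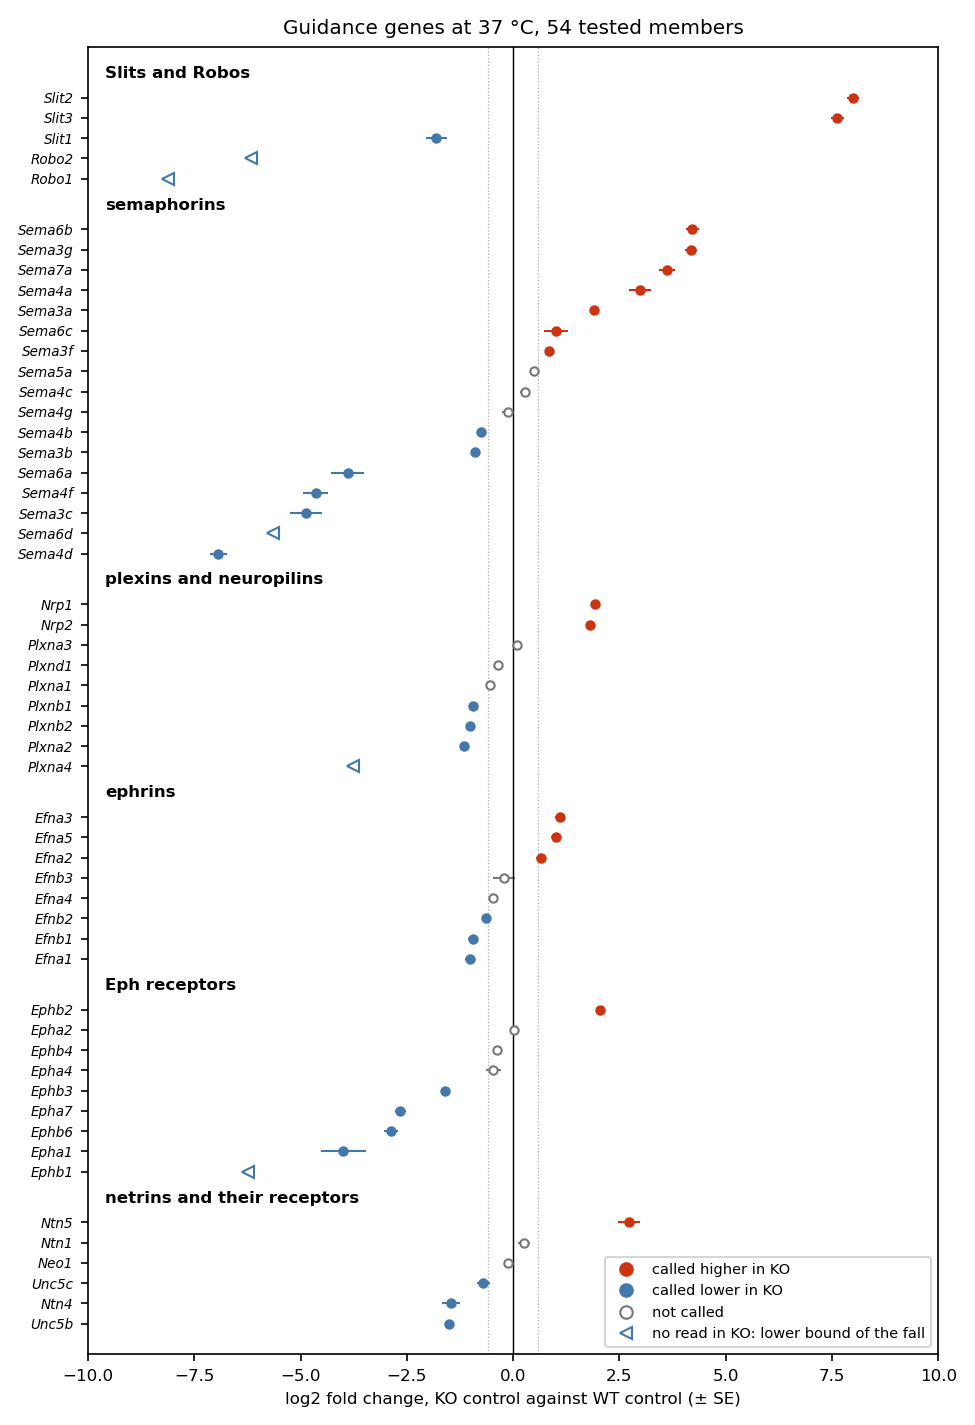
Log2 fold change of KO control against WT control (horizontal axis) for the 54 tested guidance genes, grouped by family. Points are limma estimates on log2(signal + 1) with SE bars, filled where called (red higher in KO, blue lower), and open triangles mark genes with no read in KO libraries, whose fall is at least as large as drawn. Slit2 (7.99) and Slit3 (7.62) lie at the far right, Robo1 at the far left, and the receptors other than Nrp1, Nrp2 and Ephb2 lie near 0 or left of it.

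The Slit ligands and their Robo receptors held the largest rises and the deepest loss of the set. Slit2 and Slit3 were read at low levels in WT MEFs and at high levels in KO MEFs, whereas Robo1 and Robo2 were read in every WT library and in none of the KO libraries. The bases before an annotated start site of each are shown because both ligands rose while both receptors were lost. They come from RefSeq on GRCm38.p6, 120 bases before the annotated start nearest the gene's start in the annotation, with CG dinucleotides, the sites of DNA methylation, in capitals.
Slit2 (chr5:47983035-47983154, plus strand): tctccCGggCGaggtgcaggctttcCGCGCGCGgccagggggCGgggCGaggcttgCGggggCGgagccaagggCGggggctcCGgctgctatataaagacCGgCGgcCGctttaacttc
Slit3 (chr11:35121336-35121455, plus strand): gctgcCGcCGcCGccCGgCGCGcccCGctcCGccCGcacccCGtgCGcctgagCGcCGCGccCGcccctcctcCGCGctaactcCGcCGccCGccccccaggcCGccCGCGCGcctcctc
Robo1 (chr16:72663029-72663148, plus strand): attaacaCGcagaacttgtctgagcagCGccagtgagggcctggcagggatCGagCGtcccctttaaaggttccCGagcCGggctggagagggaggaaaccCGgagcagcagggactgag
Robo2 (chr16:74411826-74411945, minus strand): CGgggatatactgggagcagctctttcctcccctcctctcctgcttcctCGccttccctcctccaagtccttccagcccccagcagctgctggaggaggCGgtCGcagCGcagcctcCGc

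The stretches held 15, 24, 7 and 6 CG dinucleotides for Slit2, Slit3, Robo1 and Robo2. Over windows from 250 bases before to 50 bases after the start, the observed CG count divided by that expected from base composition was 0.9 for Slit2, 0.928 for Slit3, 0.653 for Robo1 and 0.554 for this window of Robo2, against a median of 0.384 over 32851 mouse promoters. The Slit3 and Robo1 stretches lie inside the genes as the GENCODE annotation draws them. That of Slit3 begins at 35121336, close to its gene start at 35121224. The Robo1 stretch begins at 72663029, far from its gene start at 72308306, so its CG count is that of an inner start. That of Slit2 runs past its annotated gene start, and Robo2 has further annotated starts with ratios of 0.335 and 0.447. Other guidance genes had high and low ratios in both directions of change. Of genes that fell, Unc5b had 0.99 and the windows of Sema4d 0.101 to 0.155. Of genes that rose, Nrp2 had 0.992 and Sema3a 0.162. The windows of Sema4d and Sema3a lie inside their genes, far from the annotated gene starts. The Sema3a window begins at 13396534 and its gene at 13125414. The Sema4d windows end at 51756933 or below, while its gene, on the minus strand, starts at 51793747. Which start was in use in these cells was not measured. A link between this ratio and the direction of change was not tested, and methylation was not measured in these libraries.

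Slit2 (chromosome 5, 47983138 to 48307733), which repels Robo-bearing axons, was read at 12.4, 8.66 and 7.68 in WT control and at 2501, 2626 and 2813 in KO control libraries. Its log2 fold change was 7.99 (SE 0.15, adjusted p = 2.91e-15 from limma). Slit3 (chromosome 11, 35121224 to 35708507), a Slit also made outside the nervous system, had signals of 31.1, 26.0 and 21.0 in WT control and 5317, 5290.3 and 5190.5 in KO control libraries, 7.62 on the log2 scale (SE 0.15, adjusted p = 4.27e-15 from limma). All 3 KO libraries lay far above all 3 WT libraries for both genes, and the WT levels rested on 35 reads of Slit2 and 96 of Slit3 over 3 libraries. Slit1 went the other way at a low level, with means of 35.5 ± 6.42 (SD, n = 3) in WT control and 9.60 ± 2.85 (SD, n = 3) in KO control libraries, and fell by 1.80 on the log2 scale (SE 0.24, adjusted p = 8.37e-06 from limma).

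Robo1 (chromosome 16, 72308306 to 73046095), a Slit receptor, was read at 294, 277 and 265 in WT control libraries and had no read in the KO libraries. Counted against a floor of 3 reads over the KO control group, it was at least 279.9-fold lower, a bound that covers counting error only. Robo2 (chromosome 16, 73891839 to 74411825) was read at 67.4, 80.1 and 65.7 in WT control libraries, again with no read in KO libraries, and was at least 72.1-fold lower. Robo3 and Robo4 had no read in any of the 12 libraries. The KO libraries therefore held Slit transcripts and no read of any Robo gene, whereas WT libraries held Robo transcripts and few Slit reads. Summed per kilobase of exon, Robo signal was 19.9 to 21.8 in WT control and 0 in KO control libraries, and Slit signal 9.77 to 11.7 and 967 to 977.

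**Figure D2:**
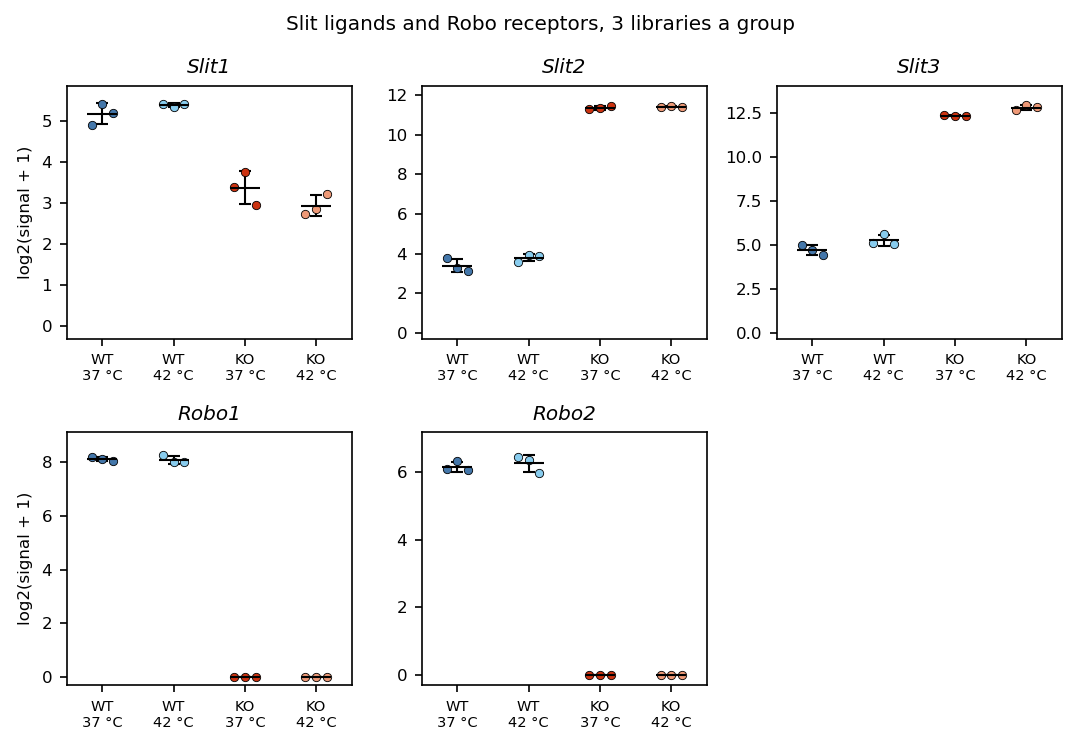
Log2(signal + 1) of the Slits (top) and of Robo1 and Robo2 (bottom) in each library, by genotype and temperature. Each point is a library and bars give the mean ± SD of the 3 libraries on that scale. For Slit2, Slit3, Robo1 and Robo2 the 6 WT and 6 KO libraries lie far apart at both temperatures, and Robo1 and Robo2 sit at 0 in the KO libraries.

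Of the class 3 semaphorins, which are secreted, Sema3a, Sema3f and Sema3g were higher in KO MEFs and Sema3b and Sema3c lower, so all 5 tested genes were called. Sema3a (chromosome 5, 13125414 to 13602565), which collapses growth cones through neuropilin-1, was read at 951, 1126 and 1149 in WT control and at 3808, 3931 and 4296 in KO control libraries. This is a log2 fold change of 1.90 (SE 0.07, adjusted p = 6.78e-12 from limma). Sema3g, expressed mainly in vessels, was nearly constant within each genotype, at 12.4, 12.3 and 12.6 in WT control and 263, 223 and 243 in KO control libraries. It changed by 4.18 on the log2 scale (SE 0.14, adjusted p = 1.63e-12 from limma), the largest rise in the class. Sema3f, a ligand of neuropilin-2, had signals of 384, 369.7 and 319 and of 661, 634 and 623, a smaller log2 fold change of 0.84 (SE 0.08, adjusted p = 1.27e-07 from limma), with the KO libraries still above all WT libraries.

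Sema3b was the abundant class 3 gene that fell. It was read at 761, 674 and 657 in WT control and at 389, 345 and 378 in KO control libraries, a log2 fold change of -0.91 (SE 0.09, adjusted p = 2.02e-07 from limma). Sema3c had 207 reads in WT control and 3 in KO control libraries, a ratio of 55.3 (95% Clopper-Pearson counting interval 18.7 to 270.2). Sema3d and Sema3e were too low to test, with group means of at most 5.67 and 0.579. Over the class the signal per kilobase summed to 293 to 309 in WT control and 528 to 563 in KO control libraries.

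The neuropilins, co-receptors that class 3 semaphorins share with vascular endothelial growth factors, rose together with Sema3a. Nrp1 (chromosome 8, 128358604 to 128503363) was read at 460.4, 515 and 472 in WT control and at 1816, 1828 and 1835 in KO control libraries, a log2 fold change of 1.92 (SE 0.06, adjusted p = 3.74e-13 from limma). Nrp2 (chromosome 1, 62703285 to 62818695) was read at 1180.0, 1144 and 1115 and at 3954, 3958 and 4173, a log2 fold change of 1.81 (SE 0.06, adjusted p = 6.67e-13 from limma). For both genes every KO library was above every WT library by far more than the spread within a group. They and Ephb2 were the only receptors called higher among the 23 tested at 37 °C.

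Semaphorins of classes 4 to 7 are mostly bound to the membrane, and 4 of 12 tested were higher, 5 lower and 3 not called. Sema6b was read at 27.0, 28.2 and 20.3 in WT control and at 519, 484 and 439.8 in KO control libraries, a log2 fold change of 4.22 (SE 0.14, adjusted p = 1.62e-12 from limma). Sema7a, anchored by a lipid and bound by integrins as well as a plexin, had signals of 29.0, 19.5 and 29.3 and of 328, 353 and 299.6, 3.62 on the log2 scale (SE 0.18, adjusted p = 1.57e-10 from limma). The other higher genes were low in WT MEFs. Sema4a went from a mean of 8.18 to 68.8 (log2 fold change 2.98) and Sema6c from 25.7 to 51.8 (1.01).

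Sema4d (chromosome 13, 51685529 to 51793747), the ligand of plexin-B1, was the semaphorin with the largest fitted fall. It was read at 357, 295 and 309 in WT control and at 2.12, 1.66 and 1.13 in KO control libraries, the latter from 5 reads in all, a log2 fold change of -6.94 (SE 0.20, adjusted p = 2.27e-13 from limma). Sema6d had 187 reads in WT control libraries and none in KO libraries, at least 49.9-fold lower. Sema4f went from 112 reads to 1, a ratio of 89.7 (95% Clopper-Pearson counting interval 15.8 to 3575), and Sema6a from 214 reads to 10, a log2 fold change of -3.90. Sema4b, which stayed abundant, fell from a mean of 748 to 442 (-0.75).

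The semaphorin gene with the highest signal that was not called was Sema5a, a transmembrane semaphorin with thrombospondin repeats. It was read at 1964, 1959 and 2211 in WT control and at 2812, 2855 and 2958 in KO control libraries, a log2 fold change of 0.49 (SE 0.06, adjusted p = 2.17e-06 from limma). The KO libraries were all above the WT libraries, but the fold stayed under 1.5. Sema4c changed by 0.27 and Sema4g by -0.12 with libraries that overlapped, and the sign of Sema4g turned under quantile normalization (0.12). Sema5b was not tested, with 6 reads in WT control and none in KO control libraries.

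None of the plexins, the signalling receptors of semaphorins, was called higher. Plxna2, Plxna4, Plxnb1 and Plxnb2 were lower and Plxna1, Plxna3 and Plxnd1 were not called. Plxnb2 (chromosome 15, 89155549 to 89180788), a receptor of class 4 semaphorins and the guidance gene with the highest signal, was read at 17535, 16331 and 15835 in WT control and at 8630.3, 8323 and 7503 in KO control libraries. It fell by 1.02 on the log2 scale (SE 0.07, adjusted p = 2.53e-09 from limma). Plxnb1, the receptor of Sema4d, was read at 1243, 1055 and 983 and at 588, 556 and 555, a log2 fold change of -0.94 (SE 0.08, adjusted p = 5.95e-08 from limma). Both B plexins were thus lower in all 3 KO libraries than in any WT library, beside the near loss of Sema4d.

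Among the A plexins, which signal for class 3 and class 6 semaphorins, Plxna2 was read at 531, 526 and 536 in WT control and at 225, 236 and 249.9 in KO control libraries. Its log2 fold change was -1.16 (SE 0.08, adjusted p = 8.92e-09 from limma). Plxna4 had 51 reads in WT control and none in KO libraries and was at least 13.6-fold lower. Plxna1 (chromosome 6, 89316314 to 89362620) was read at 13167, 11986 and 11615 and at 8817, 8252 and 8021, a log2 fold change of -0.55 (SE 0.07, adjusted p = 4.3e-06 from limma). Its libraries did not overlap, yet the fold was just under 1.5, and Plxna1 was called with quantile normalization (-0.59), without WT control replicate 3 (-0.59) or without KO control replicate 1 (-0.59). An antisense gene, Gm26811, overlaps 10.7% of the exon bases of Plxna1. The libraries were made with a stranded kit, but whether the reads were counted by strand is not given in the sources used here. Plxnd1 changed by -0.36 and Plxna3 by 0.10, the latter with a sign that turned without WT control replicate 3 (-0.013). Plxnb3 and Plxnc1 were not tested, with group means of at most 1.07 and 4.57.

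**Figure D3:**
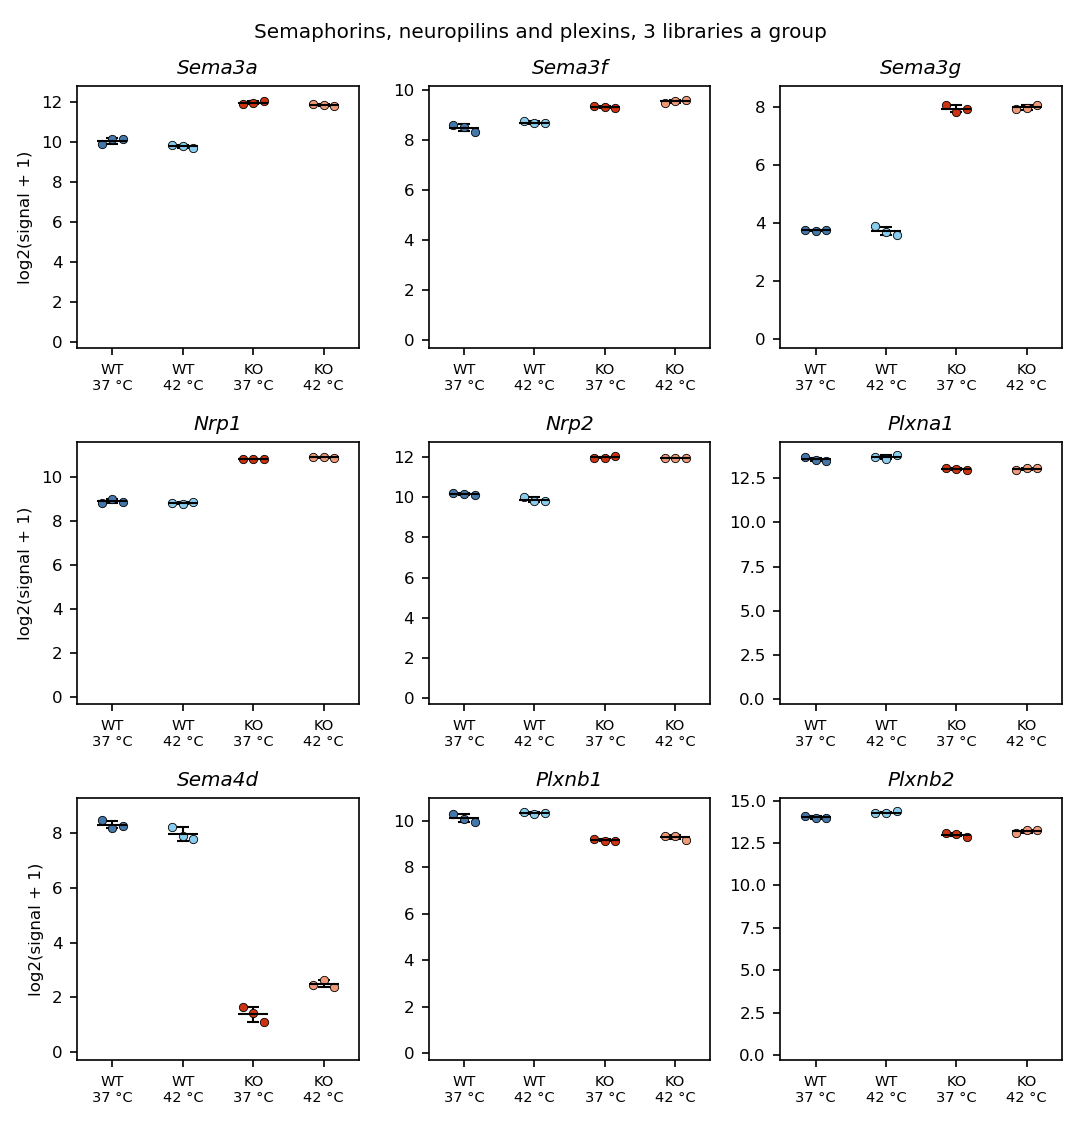
Log2(signal + 1) of class 3 semaphorins (top), neuropilins with Plxna1 (middle) and Sema4d with B plexins (bottom) in each library, by genotype and temperature. Each point is a library and bars give the mean ± SD of the 3 libraries on that scale. Sema3a, Sema3f, Sema3g, Nrp1 and Nrp2 are higher in every KO library and Sema4d, Plxnb1 and Plxnb2 lower in every KO library.

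The ephrins moved in both directions. Of the ephrin-A ligands, which are tethered by a lipid anchor, 3 were higher, 1 was lower and 1 was not called, and of the ephrin-B ligands, which span the membrane, 2 were lower and 1 was not called. Efna1 (chromosome 3, 89271733 to 89281142), the most abundant ephrin in WT MEFs per kilobase of exon, was read at 1024, 855 and 941 in WT control and at 506, 439 and 441 in KO control libraries, a log2 fold change of -1.02 (SE 0.10, adjusted p = 2.62e-07 from limma). Efna5 was read at 243, 242 and 284 and at 491, 516 and 537, 1.01 on the log2 scale (SE 0.13, adjusted p = 4.05e-06 from limma). Efna3 was read at 157, 122 and 129 and at 318, 265 and 287, 1.10 on the log2 scale (SE 0.11, adjusted p = 4.84e-07 from limma). An antisense gene, Gm15998, overlaps 14.1% of the exon bases of Efna3, and reads of the pair could be mixed if strand was not used. Groups of libraries did not overlap for Efna1, Efna3 or Efna5. Efna2 rose from a mean of 181 to 283, by 0.65 on the log2 scale (SE 0.12, adjusted p = 0.000214 from limma), and lost its call without WT control replicate 3 (0.53) or KO control replicate 1 (0.58).

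Efnb1 (chromosome X, 99136130 to 99148991), mutated in a human disorder of skull sutures, was read at 579.6, 523 and 567 in WT control and at 332, 289 and 249.9 in KO control libraries. It fell by 0.95 on the log2 scale (SE 0.11, adjusted p = 1.17e-06 from limma), with no overlap between the genotypes. Efnb2, which marks arteries, fell from a mean of 714 to 459, by 0.64 (SE 0.10, adjusted p = 2.67e-05 from limma), a call lost under quantile normalization (-0.57) or when KO control replicate 3 was left out (-0.58). Efna4, the ephrin gene with the highest signal that was not called, was read at 497, 455 and 403 and at 336, 352 and 287, a log2 fold change of -0.47 (SE 0.10, adjusted p = 0.000439 from limma) under the fold threshold. An antisense gene, 4731419I09Rik, overlaps 10.5% of its exon bases. Efnb3 is described with the heat shock results.

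Among the Eph receptor tyrosine kinases, Ephb2 alone of the 9 tested was higher, 5 were lower and 3 were not called. Ephb2 (chromosome 4, 136647539 to 136835988), a receptor of ephrin-B ligands that also binds ephrin-A5, was read at 468, 408 and 399.6 in WT control and at 1912, 1710.2 and 1627 in KO control libraries. Its log2 fold change was 2.04 (SE 0.08, adjusted p = 5.61e-12 from limma). Ephb3 was read at 971, 900.3 and 804 and at 329, 277 and 272, a log2 fold change of -1.60 (SE 0.09, adjusted p = 7.42e-10 from limma). The B class receptors therefore moved in opposite directions within the same libraries. Ephb6, whose kinase domain is inactive, was read at 164, 126 and 136 and at 15.9, 20.0 and 19.2, a log2 fold change of -2.88 (SE 0.16, adjusted p = 5.79e-10 from limma). Ephb1 had 281 reads in WT control libraries and none in KO libraries and was at least 75.0-fold lower.

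Epha7 (chromosome 4, 28813131 to 28967499) was the A class receptor with the clearest fall, from 379, 393 and 412 in WT control to 49.8, 65.7 and 72.4 in KO control libraries, a log2 fold change of -2.65 (SE 0.14, adjusted p = 2.06e-10 from limma). Epha1 had 79 reads in WT control and 2 in KO control libraries, a ratio of 31.6 (95% Clopper-Pearson counting interval 8.48 to 266). Exons of Zyx on the other strand cover 6.01% of its exon bases. Receptors that were not called include the most abundant of the family. Ephb4, the receptor of ephrin-B2 in veins, was read at 3108, 2791 and 2645 and at 2331, 2181 and 2017, a log2 fold change of -0.39 (SE 0.07, adjusted p = 0.000157 from limma). Epha2, a receptor of ephrin-A1, had means of 2319 and 2359 with libraries that overlapped and a log2 fold change of 0.03, whose sign turned without WT control replicate 3 (-0.021) or KO control replicate 1 (-0.011). Epha4 changed by -0.46 with a fold under 1.5 and overlapping libraries. It was called without KO control replicate 3 (-0.67). Epha3, Epha8 and Epha10 had group means of at most 8.02 and were not tested, and Epha5 and Epha6 had no read.

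In the netrin system both tested Unc5 receptors were lower, Ntn4 was lower and Ntn5 higher. Unc5b (chromosome 10, 60762593 to 60831581), a receptor through which netrins repel, was read at 5342, 4855 and 4505 in WT control and at 1788, 1712 and 1655 in KO control libraries. Its log2 fold change was -1.51 (SE 0.07, adjusted p = 9.87e-11 from limma), and the genotypes did not overlap. Neo1, which encodes neogenin, a receptor of netrins and of repulsive guidance molecules, was read at 3630.1, 3713 and 3785 and at 3332, 3402 and 3551, a log2 fold change of -0.11 (SE 0.05, adjusted p = 0.0367 from limma) that stayed far under the fold threshold. Unc5c fell by 0.70 on the log2 scale from a mean of 136, and its call ended with quantile normalization (-0.29). Dcc, Unc5a and Unc5d had no read in any library. Among the ligands, Ntn1 had means of 109.9 and 133, with overlapping libraries and a log2 fold change of 0.26 (SE 0.14, adjusted p = 0.11 from limma), although quantile normalization called it higher (0.63). Ntn4, a netrin of basement membranes, fell from a mean of 66.3 to 23.1 (-1.47), and Ntn5 rose from 3.28 to 27.4 (2.73), with exons of Sec1 on the other strand across 23.4% of its exon bases.

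The order of the levels was compared per kilobase of exon, since longer transcripts give more reads. The length was that of all annotated exons of a gene joined, not of 1 transcript, such as 25.4 kb for Slit2 and 6.07 kb for Slit3. Ranks and sums per kilobase thus depend on the exons that the annotation lists. Plxnb2 and Plxna1 led in both genotypes, with 2146 ± 113 and 1354 ± 89.5 signal per kilobase in WT control libraries (SD, n = 3) and 1056 ± 75.5 and 924 ± 45.2 in KO control libraries. Unc5b, Ephb4, Efna1, Epha2 and Neo1 followed in WT MEFs, at 783 ± 67.2, 614 ± 51.0, 514 ± 46.3, 496 ± 38.3 and 426 ± 8.90 signal per kilobase, where Efna1 and Epha2 lay within their SDs of each other. In KO MEFs Slit3 followed directly, at 868 ± 11.0 signal per kilobase against 4.29 ± 0.836 in WT MEFs, with its KO mean within 2 SDs of that of Plxna1. Epha2 and Ephb4 came next, at 505 ± 33.2 and 469 ± 33.9, with SD ranges that overlapped. Nrp2 moved from rank 19 to 7 and Sema3a from 21 to 8, while Unc5b moved from rank 3 to 9 and Efna1 from 5 to 10. In KO heat shock libraries Slit3 stood above Plxna1, at 1197 ± 111 against 935 ± 43.8 signal per kilobase (SD, n = 3). There its SD range overlapped that of Plxnb2, at 1213 ± 77.8. By family, plexin signal per kilobase summed to 3891 to 4399 in WT control and 2319.9 to 2595 in KO control libraries, neuropilin signal to 142 to 149 and 519 to 539.9, and that of the netrin receptors to 1161 to 1277 and 668 to 677.

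**Figure D4:**
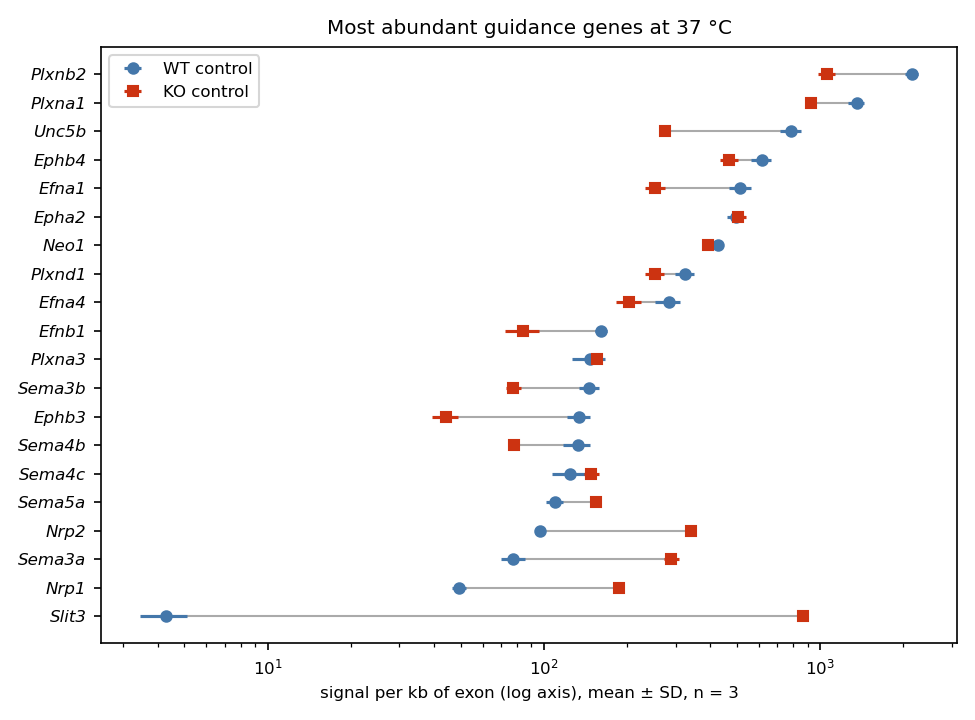
Signal per kilobase of exon (log axis) of the most abundant guidance genes in WT control (blue circles) and KO control (red squares) libraries, mean ± SD of 3 libraries, ordered by the WT level. Plxnb2 and Plxna1 lead in both genotypes, and of the genes plotted Slit3 spans the widest gap, from 4.29 to 868.

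Heat shock changed few guidance genes by 1.5-fold or more. In WT MEFs limma called 1 of the 54 genes, Efnb3, higher and 0 lower, where 3.68% of all genes tested were called, 1.66% higher and 2.02% lower. At any fold, 13 guidance genes had an adjusted p of 0.05 or less from limma and 17 an unadjusted p under 0.05, 24.1% and 31.5% of the 54, where the shares of all genes were 28.8% and 40.8%. In KO MEFs it called Sema4d and Sema4g higher and 0 lower, where 0.887% of all genes were called, 0.577% higher and 0.31% lower. Here 2 guidance genes had an adjusted p of 0.05 or less from limma at any fold and 9 an unadjusted p under 0.05, 3.70% and 16.7% against 2.60% and 16.7% of all genes. For the genes called lower, edgeR and DESeq2 also gave 0 in both genotypes. Heat-shocked and control libraries did not overlap for 15 of the 54 genes in WT MEFs and for 15 in KO MEFs, against 42.4% and 21.6% of all genes tested. The median log2 fold change with heat shock was 0.06 in each genotype.

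Efnb3 (chromosome 11, 69554092 to 69560205), a transmembrane ephrin of the nervous system, was read at 35.3, 28.2 and 23.1 in WT control and at 60.3, 78.3 and 35.8 in WT heat shock libraries. It rose by 0.94 on the log2 scale (SE 0.26, adjusted p = 0.0151 from limma), with every heat-shocked library above every control library. In KO MEFs it was read at 24.4, 23.3 and 24.9 in control and at 36.2, 35.3 and 27.2 in heat-shocked libraries, a log2 fold change of 0.42 (SE 0.26, adjusted p = 0.453 from limma). Slit3 came near the fold threshold in both genotypes, with 0.54 (SE 0.15, adjusted p = 0.015 from limma) in WT and 0.46 (SE 0.15, adjusted p = 0.126 from limma) in KO MEFs. The Efnb3 call in WT MEFs ended without WT control replicate 3 (0.79), without WT heat shock replicate 2 (0.69) and when the fit held the compared groups alone (0.94).

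Sema4g (chromosome 19, 44989101 to 45003397), a class 4 semaphorin, was read at 176, 186 and 197 in KO control and at 257, 315 and 307 in KO heat shock libraries. It rose by 0.64 on the log2 scale (SE 0.13, adjusted p = 0.0194 from limma), without overlap. In WT MEFs the values were 235, 194 and 181 before and 259.8, 215 and 187 after heat shock, which overlapped, with a log2 fold change of 0.11 whose sign turned without WT heat shock replicate 1 (-0.0098). The call in KO MEFs lay near both thresholds and ended without KO control replicate 1 (0.60) or 2 (0.65), without KO heat shock replicate 2 (0.59) or 3 (0.61), and with the compared groups alone (0.64). Sema4d rose in KO MEFs from 2.12, 1.66 and 1.13 to 4.52, 5.19 and 4.19, which are 5 and 13 reads over 3 libraries each, a log2 fold change of 1.11 (SE 0.20, adjusted p = 0.00756 from limma). That call ended with a pseudocount of 5 (0.54), with edgeR (1.41, adjusted p = 0.290), with DESeq2 (1.49, adjusted p = 0.317) and with the compared groups alone (1.11). In WT MEFs Sema4d was read at 302, 238 and 219 after heat shock.

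The difference between the genotypes in their response was tested as an interaction. limma called 0 of the 54 guidance genes and 0 of all 14201 genes, with 5 and 2532 at an unadjusted p under 0.05. edgeR and DESeq2 also called 0 guidance genes and had 7 each at an unadjusted p under 0.05, while over all genes edgeR called 6 higher and 4 lower and DESeq2 28 higher and 7 lower. Sema4d had the smallest adjusted p of the set, with a log2 difference between the responses of 1.45 (SE 0.28, adjusted p = 0.0974 from limma), and it was called without WT control replicate 1 (1.37) or WT heat shock replicate 1 (1.59). Efnb3 gave -0.52 (SE 0.36, adjusted p = 0.456 from limma) and Sema4g 0.53 (SE 0.19, adjusted p = 0.189 from limma), so a difference between the genotypes in their response was not detected for either gene.

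**Figure D5:**
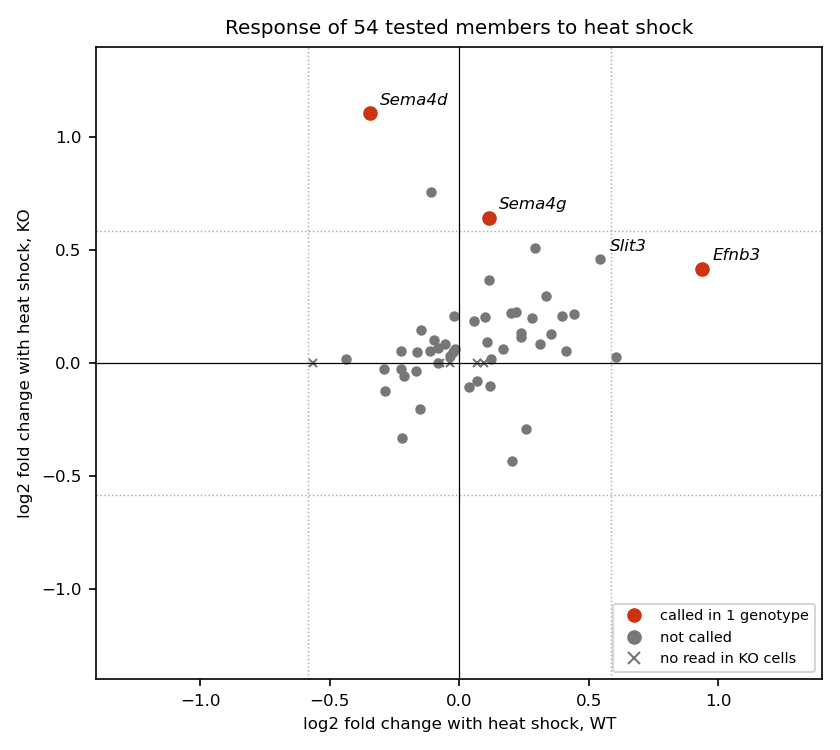
Log2 fold change with heat shock in WT MEFs (horizontal) and KO MEFs (vertical) for the 54 tested guidance genes, each point a gene. Red points were called in 1 genotype, crosses had no read in KO MEFs, and dotted lines mark a fold of 1.5. Most genes lie within these lines in both genotypes, with Efnb3 (0.94) to the right and Sema4d (1.11) and Sema4g (0.64) above. Sema3c (0.76 in KO MEFs) and Sema4a (0.61 in WT MEFs) lie beyond a line and were not called.

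The genotype comparison was repeated in the heat-shocked libraries, which are separate libraries from the controls. limma called 16 guidance genes higher and 26 lower in KO heat shock against WT heat shock, 77.8% of the 54, where 48.7% of all genes were called. Of the 42 guidance genes that passed the filter in both genotypes, 15 were higher and 15 lower. The share called among them was 71.4%, against 41.6% of the 11918 genes of the whole table that did so. At both temperatures 39 genes were called in the same direction and 0 in opposite directions. The 39 include the genes that passed the filter through WT or KO libraries alone, which could hardly fail to differ at either temperature. Efna2 and Efnb2 were called at 37 °C alone and Efnb3, Plxna1 and Sema5a after heat shock alone, and the difference between the temperatures was not called for any of them. The libraries of the genotypes did not overlap for 50 of the 54 genes after heat shock, against 78.4% of all genes. Efnb3, Epha4, Plxna3 and Sema4g were the ones that overlapped. The 50 also include the genes that passed the filter through WT or KO libraries alone.

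After heat shock Slit3 was read at 6557, 7904 and 7326 in KO and at 33.6, 48.9 and 33.1 in WT libraries, a log2 fold change of 7.54 (SE 0.15, adjusted p = 5.3e-15 from limma). For Slit2 the values were 2698, 2787 and 2736 and 10.9, 14.1 and 13.8 (7.63). Robo1 was read at 307, 257 and 255 in WT heat shock libraries and remained without a read in KO libraries, at least 257-fold lower. Sema3a changed by 2.06 on the log2 scale, Nrp1 by 2.07, Nrp2 by 2.07, Ephb2 by 2.03, Unc5b by -1.73 and Plxnb2 by -1.10. Sema5a passed the fold threshold after heat shock, at 2900.5, 3009 and 3035 in KO against 2010.1, 1802 and 1860.0 in WT libraries (0.66), as did Plxna1 (-0.66), whose call ended with quantile normalization (-0.58). Efnb3 was lower in KO MEFs (-0.74), a call that ended with quantile normalization (-0.33) and without WT heat shock replicate 1 (-0.68), WT heat shock replicate 2 (-0.50) or KO heat shock replicate 3 (-0.62).

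Other genes of the guidance pathways were counted in KO control against WT control from a list of 113 genes, of which 100 were tested, 22 higher, 39 lower and 39 not called. The genes named below were all called by limma. Of 19 tested ligands, co-receptors and adhesion partners, 8 were higher and 6 lower. L1cam, an adhesion molecule that forms a receptor complex with neuropilin-1, rose from a mean of 13.5 to 172 (3.59 on the log2 scale), and Sdc3, a syndecan whose heparan sulfate chains bind guidance cues, fell from a mean of 7266 to 8.27 (-9.67 on the log2 scale). Of 25 cytoplasmic signal carriers, 2 were higher and 11 lower, with Sh3kbp1, an adaptor in receptor uptake, rising from a mean of 1509 to 4087 (1.44 on the log2 scale) and Ablim1, an actin-binding LIM protein linked to netrin signalling in worms, falling from a mean of 2608 to 133 (-4.29 on the log2 scale). Exchange factors, GTPase-activating proteins and small GTPases held 6 higher and 13 lower genes of 32. Rras, a GTPase that plexins inactivate, rose from a mean of 426 to 1001 (1.23 on the log2 scale), and Srgap3, of the Slit-Robo GTPase-activating proteins, fell from a mean of 1889.8 to 349 (-2.43 on the log2 scale). Srgap3 did not have the deepest fall of this list, which reached -4.49 on the log2 scale in another gene.

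Of 15 kinases and actin regulators, 5 were higher and 4 lower. Cfl2, a cofilin that severs actin filaments, rose from a mean of 509.7 to 1168 (1.21 on the log2 scale), and Ssh3, a phosphatase of the slingshot family, fell from a mean of 814 to 7.48 (-6.85 on the log2 scale). Among 9 proteases that cut guidance receptors or ligands, 1 was higher and 5 lower, with Mmp2, a gelatinase, rising from a mean of 3214 to 6107 (0.93 on the log2 scale) and Mmp9, the other gelatinase, falling from a mean of 3443 to 291 (-3.56 on the log2 scale). The shares called were 73.7%, 52.0%, 59.4%, 60.0% and 66.7% of the tested genes in these lists, in the order given, beside 48.8% of all genes tested. These shares include genes that passed the filter through 1 genotype alone, such as Cntn2 with 495 reads in WT control and 0 in KO control libraries. The lists were not split by the genotype in which a gene passed.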

How the data were processed

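Poly-A RNA of 12 MEF libraries (WT and KO, control and heat shock, 3 each), made with a stranded kit, was sequenced as paired ends. Per the labels and the methods of the study, the authors used cutadapt 1.10 for trimming, STAR 2.5.2 for alignment and HTSeq-count for counting per gene, and the deposited signal is the count divided by 1 DESeq2 size factor per library. The submitters' notes name mm9 and the methods GRCm38 with GENCODE. The table holds gene symbols and no positions, so coordinates and exon lengths here are those of GENCODE on GRCm38. Whole reads were recovered for 100% of the values within 0.01 read. Reads from nearly identical genes cannot be told apart in the table, nor can those of overlapping antisense genes if strand was not used in counting.

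Of 45808 genes, 20908 had no read and 14201 passed the filter (signal of 10 in 3 libraries). All of them were fitted with limma 3.58.1 in R 4.3.3 (log2 of signal plus 1, trended eBayes, 1 mean per group over all 12 libraries, no block), so each fold change is on the log2(signal + 1) scale and understates the change of low genes. The fit was tested on simulated data. Comparisons were KO against WT at each temperature, heat shock against control in each genotype, and the difference between these responses. Folds against a group without reads set that group to a floor of 3 reads in all, and counts of 1 to 3 reads carry a 95% Clopper-Pearson interval. Both cover counting error only, and p-values cover the spread among the sequenced libraries, which may be technical.

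Signals of single libraries are given for called genes that reached a mean of 100 in the higher group in KO control against WT control (12 largest changes in each direction), for genes called with heat shock, and for the most abundant gene of each family that was not called. Coordinates, Robo2, the other values given for lower genes and Tgm2 are additional. For each group of the wider pathway list, the largest change in each direction is named. Only called genes whose mean signal reached 100 in WT control or KO control libraries were considered for this. The genes, the lists and the tests were chosen with earlier results of these data known. Alternatives were pseudocounts of 0.5 and 5, no filter, a filter of 50, quantile normalization, edgeR 4.0.16 with TMM and DESeq2 1.42.0 on recovered reads, a replicate block, a fit of the compared groups alone, and leaving out each library. Promoters were taken from RefSeq on GRCm38.p6, where 59 of the 69 genes matched, in 75 windows. The median library held 19119552 reads in genes.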

Additional observations from a re-analysis of the deposited data

How the results depend on the processing

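In KO control against WT control the count of higher guidance genes was 15 to 17 and that of lower genes 20 to 26 over all alternatives, and after heat shock 15 to 17 and 20 to 28; leaving out 1 library gave 15 to 16 and 25 to 26, and 16 and 25 to 26. The low ends of 20 come from a filter that tested fewer genes. Quantile normalization moved the median log2 fold change of all genes in KO control against WT control from -0.04 to 0.09 and that of the guidance genes from -0.47 to -0.34. It turned the sign of Efnb3 (0.19) and Sema4g (0.12) at 37 °C and of Epha4 after heat shock (0.17), none of them called. Leaving out 1 library gave -0.021 to 0.086 for Epha2 and -0.013 to 0.18 for Plxna3 at 37 °C, with -0.011 for Epha2 without KO control replicate 1, and -0.0098 to 0.22 for Sema4g with heat shock in WT MEFs.

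The count of genes higher with heat shock in WT MEFs, 1, was 0 with a filter of 50, 2 with edgeR, 2 with DESeq2 and 0 with the compared groups alone, and 0 to 3 when a library was left out. In KO MEFs the count of 2 was 1 with a pseudocount of 5, 1 with edgeR, 1 with DESeq2 and 0 with the compared groups alone, and 1 to 2 when a library was left out. For the difference between the responses it was 0 to 1. The cause of these changes was not tested, other than the filter, which did not test Efnb3 where it was 0. The call of Tgm2 at 37 °C (-0.60) was lost without WT control replicate 1 (-0.57) or KO control replicate 2 (-0.56), under quantile normalization (-0.56) and in edgeR (-0.58).

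Same-numbered libraries of different groups were correlated in their deviations from the group means at -0.07 to 0.20 (median -0.02), with 2 of 18 correlations above 0.1, so libraries of 1 number were not treated as pairs. Both lay between WT control and KO control, at 0.20 for replicate 1 and 0.16 for replicate 3, while replicate 2 gave 0.028. With a replicate block 16 guidance genes were higher and 25 lower at 37 °C, 16 and 26 after heat shock, 1 higher with heat shock in WT and 2 in KO MEFs, the counts without the block. At these depths a gene with no read in a group could still have an expected count of up to 3 reads over its 3 libraries. The calls near a fold of 1.5 or with under 20 reads a group are the least certain.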

Other observations

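The promoters of the guidance genes were searched for the binding letters of 2 factors tied to the study's question. CTTTGA, the core bound by the LEF and TCF factors of Wnt signalling, was sought on both strands in the windows from 250 bases before to 50 bases after each RefSeq start. It was found in 5 of 75 windows (6.67%), those of Epha2, Nrp2, Robo4, Sema3e and Sema6d, beside 16% of all 32851 mouse promoters. GAANNTTC, the paired unit of the heat shock element, was found in 1 window (1.33%), that of Epha6, beside 7.86% of all promoters, and the 3-unit forms (GAANNTTC followed by NNGAA or preceded by TTCNN) in 0 windows, beside 0.603% each. Every match of the 3-unit forms also holds the paired unit. The windows of Sema4d and Sema4g, both called with heat shock in KO MEFs, held none of these letters. Those of Sema4d lie inside the gene, far from its annotated start. Efnb3, called with heat shock in WT MEFs, had no window and was not searched. Most guidance windows had a higher GC content than the median of all promoters, 52.67%. The shares were not adjusted for base composition, so they cannot show whether these letters are rarer than composition alone would give. A match or its absence in such a short window says nothing of the binding of a factor.

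The Eph and ephrin families were also summed per kilobase of exon. Ephrin-A signal per kilobase was 946 to 1094 in WT control and 790.0 to 884 in KO control libraries, ephrin-B signal 262 to 285 and 142 to 172, EphB receptor signal 770.3 to 909 and 609.9 to 708, and EphA receptor signal 524 to 599 and 486 to 543. The libraries of the genotypes did not overlap in the sums of the first 3 and overlapped in the last, in which Epha2 holds most of the signal. Netrin ligands summed to 31.7 to 41.9 in WT control and 35.8 to 42.4 in KO control libraries, which overlapped. The semaphorins of classes 4 to 7 summed to 445 to 509 and 619 to 661, without overlap.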
